A study of Drosophila melanogaster with 16 samples.

Results

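Proteasome subunits and protein chaperones were followed in heads of female Drosophila melanogaster during feeding of pentylenetetrazole (PTZ), a proconvulsant drug, and after its withdrawal. Members were the genes named on the array whose symbol starts with Pros, Rpn, Rpt, Hsp, Hsc70, CCT, Tcp-1 or DnaJ and whose product is a proteasome subunit or a chaperone. They were 47 of 6793 named genes, of which 16 belong to the core particle of the proteasome, 14 to its regulatory particle and 17 to the chaperones. The flies were wild type Oregon-R virgin females, 3 to 4 days old when treatment began, kept at 30 to a vial on normal food (NF) with PTZ at 8 mg/ml or on NF alone. Titles, characteristics and treatment text give females, while the text on fly rearing speaks of males, and the flies are taken here as females. PTZ and NF heads of the same age were hybridised together on 2-colour cDNA arrays. Feeding had 3 time points of 4 arrays each, after 12 hrs of PTZ, then on its 2nd and its 7th day. The last 4 arrays, of the 14th day, came from flies given PTZ for 7 days and then NF for 7 days. Replicates 1 and 2 of each time point carried PTZ in the red dye Cy5, and replicates 3 and 4, the dye swaps, carried it in the green dye Cy3. Per the labels, every replicate had its own vials and its own pools of heads.

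The proteasome is the protease complex that degrades proteins marked with ubiquitin. Its core particle is a barrel of stacked rings, in which the alpha subunits form the outer rings that gate entry and the beta subunits form the inner rings that hold the proteolytic sites. The regulatory particle caps the barrel. Its lid removes ubiquitin chains, and its base holds the ATPases (Rpt subunits) that unfold a substrate and pass it inward, beside ubiquitin receptors and scaffold proteins. Chaperones act before that step. The CCT chaperonin folds actin, tubulin and other proteins, Hsp70 proteins and their DnaJ partners bind unfolded stretches, small heat shock proteins such as Hsp26 hold unfolded proteins until they can be refolded, and Hsp60 proteins form a chaperonin of mitochondria. Several heat shock genes are known for strong induction by heat and other stress. Drosophila also carries extra copies of some proteasome genes, several of them used mainly in testis, written here with an R or T in the symbol (Prosbeta5R1, Rpt4R).

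Every value below is a log2 ratio of PTZ over NF in heads, read as a difference between the groups and not as a level. Values were set relative to the median of their array, and dye swap arrays were turned, so 0 means that a gene stood where the median spot of that array stood. The heads are a mixture of brain, eye, fat body, muscle and other cells, and in such bulk RNA fewer cells of a type and less RNA per cell cannot be told apart. The arrays held values for 8709 to 21970 of 27648 spots, and duplicate spots of an array had a Spearman correlation of 0.47 to 0.74 across genes. Medians before centring and turning lay between -0.22 and -0.05 at 12 hrs and on the 2nd day, and between -0.01 and 1.57 on the 7th and 14th day. After turning, arrays of opposite dye orientation had a Spearman correlation across all features that lay between -0.45 and -0.33 at 12 hrs. It lay between -0.39 and -0.08 for the 2nd day, between -0.09 and 0.34 for the 7th and between -0.37 and 0.35 for the 14th. For arrays of the same orientation, replicates 1 with 2 and 3 with 4, it was 0.59 and 0.37 at 12 hrs and 0.33 and 0.43 on the 2nd day. On the 7th day it was 0.43 and -0.09, and on the 14th day -0.06 and -0.04, so those arrays also differed within an orientation. The direction of all values rests on the dyes that the labels give and on the ratio of red over green that the study's methods state. For 1 array, titled as replicate 4 of the 7th day, the treatment text of the labels speaks of a move to fresh food as it does for the withdrawal arrays. This array was used by its title, and values without it are given.

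A gene counted as measured at a time point when 3 or more of its 4 arrays gave a value. Of the 47 members, 23 were measured so at 12 hrs, 22 on the 2nd day, 28 on the 7th day and 22 on the 14th day. Only 8 members were measured at all 4 time points, 29 at 1 to 3 of them and 10 at none. Among those 10 were 5 extra copies of proteasome genes, together with Prosbeta4, CCT5, CCT8, DnaJ-60 and Hsp60D, and Hsp60D had no value on any array. Hsc70-3, Hsc70-4 and Hsp83 are not among the rows named here and were not analysed here. Most members, 40 of 47, were printed as 1 pair of spots, and in pairs with both spots measured the median gap between the spots was 0.158 on the log2 scale (345 pairs, largest 2.03, 34 over 0.5).

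No member passed the test against 0 at any time point. With limma at an adjusted p under 0.19, 0 of 23 members passed at 12 hrs, 0 of 22 on the 2nd day, 0 of 28 on the 7th day and 0 of 22 on the 14th day. Over all features tested, which are the named genes and the unnamed spot pairs, the share that passed was 0% of 5760, 0.222% of 5415, 0% of 7289 and 0% of 6464 in the same order. At an unadjusted p under 0.05 from limma, members were found on 2 of the days. For the 7th day 3 of 28 were lower (Prosalpha5, Prosbeta5 and Hsp26), against 3.31% of all features, and 0 of 28 were higher, against 5.09%. For the 14th day 1 of 22, again Hsp26, was higher, against 0.449% of all features, and 0 were lower, against 1.73%. At 12 hrs 0 of 23 members were lower or higher, against 1.39% and 0.955%, and for the 2nd day 0 of 22, against 3.08% and 1.74%. The lists of members carry no test of their own.

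The medians of the classes lay within 0.05 of 0 at 12 hrs and on the 2nd day. The core particle had a median of 0.04 over 6 genes and then 0.03 over 7, the regulatory particle -0.02 over 9 and then 0.01 over 7, and the chaperones 0.01 over 8 and then -0.0041 over 8. By the 7th day the core particle stood at -0.14 over 9 genes, the regulatory particle at -0.18 over 10 and the chaperones at -0.02 over 9. The 14th day had them at -0.11 over 8 genes, 0.11 over 7 and -0.05 over 7, and these last medians did not keep their sign: over the core subunits measured on all 4 arrays the median was 0.08, and with a dye term that of the regulatory particle was -0.04. The median of all features was 0.00 at the first 3 time points and -0.01 on the 14th day. The 7th day mean was below 0 for 6 of 9 core genes, 7 of 10 regulatory genes and 5 of 9 chaperones, 18 of 28 in all, against 49.3% of all features. Without the extra copies it was below 0 for 13 of 17 proteasome subunits. Elsewhere the mean was below 0 for 11 of 23 members at 12 hrs (49.4% of all features), 9 of 22 for the 2nd day (48.1%) and 12 of 22 for the 14th day (51.7%).

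**Figure D1:**
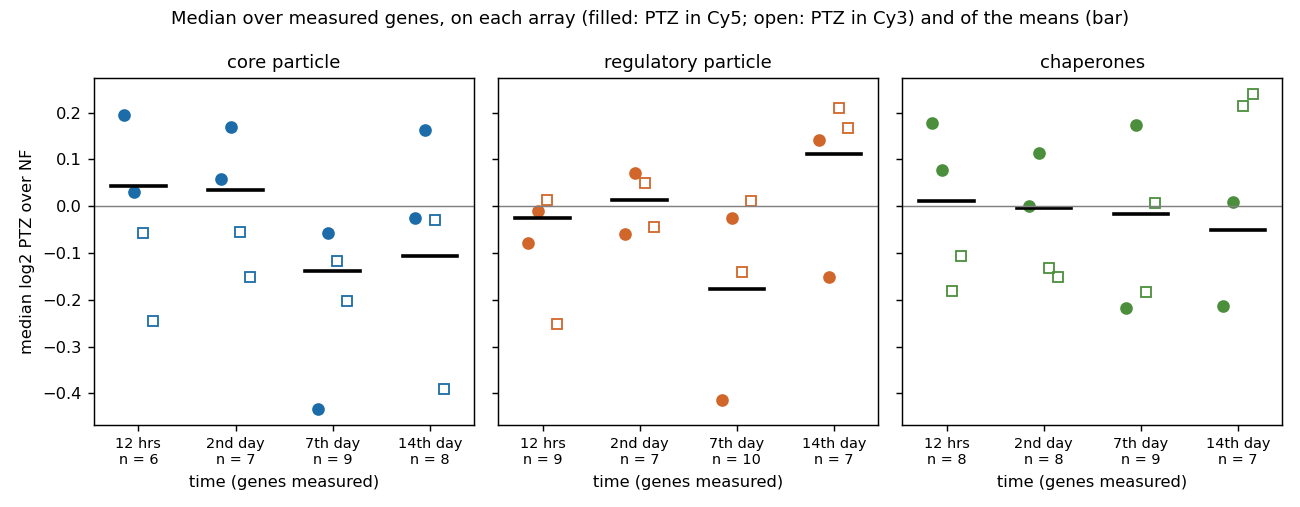
Median log2 PTZ over NF of the measured genes of each class (y axis) at each time point (x axis, with the number of genes), shown for each array as a filled circle (PTZ in Cy5) or an open square (PTZ in Cy3) and for the means over arrays as a black bar. On the 7th day the core particle median is below 0 on all 4 arrays, from -0.43 to -0.06, while the arrays of the other classes and days lie on both sides of 0.

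The spread between arrays was wide beside these medians. For the 7th day the core particle median was -0.43, -0.06, -0.12 and -0.20 on replicates 1 to 4, below 0 on every array. The regulatory particle median was -0.41, -0.03, -0.14 and 0.01, and that of the chaperones was -0.22, 0.17, -0.18 and 0.01. Replicate 1 was the lowest array for every class. Without it the median of the core particle was -0.04 and that of the regulatory particle -0.09. Without replicate 4, the array with the conflicting label, they were -0.19 and -0.24, and at an unadjusted p under 0.05 limma then had 4 of 28 members lower, against 4.61% of all features, and 2 higher, against 11%. In the deposited values without centring, the median of all features stood at 0.09 on the 7th day, and the core particle was at -0.01, the regulatory particle at -0.18 and the chaperones at 0.13. In those values 0 of 28 members had an unadjusted p under 0.05 from limma, against 0.0412% of all features lower and 0.521% higher. Uncentred values carry the array medians, which before turning were 0.72, 1.38, 0.84 and 0.75 on replicates 1 to 4. A gene without a value on an array lacks the offset of that array. Rpn7 and Rpn11 gave no value on replicate 2, and Prosalpha4 and Prosbeta7 gave none on replicate 3. The uncentred class medians are therefore not compared with each other.

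Within the core particle, the alpha ring subunit Prosalpha5 was the lowest gene of the 7th day. It was at -0.70 and -0.93 on replicates 1 and 2 and at -0.15 and -0.34 on replicates 3 and 4. All 4 arrays lay below 0, further below with PTZ in Cy5, and the mean of -0.53 (SD 0.35, n = 4 arrays) is 1.44-fold lower on PTZ (limma adjusted p = 0.589). The values of all spots also spread more widely with PTZ in Cy5 on that day. Their median absolute deviation was 0.28 and 0.37 on replicates 1 and 2, and 0.19 and 0.17 on replicates 3 and 4. Prosalpha5 was at 0.10, 0.02 and 0.10 on the 3 arrays of 12 hrs that measured it and at 0.13, 0.07 and -0.06 on those of the 14th day. Those 6 values all lay above the highest of the 7th day.

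Prosbeta5, the beta ring subunit with chymotrypsin-like activity, was at -0.57, -0.63, -0.44 and -0.05 on the 7th day. Again every array lay below 0, and the mean was -0.42 (SD 0.26, n = 4, 1.34-fold lower, limma adjusted p = 0.589). Its unadjusted p from limma was under 0.05 with all arrays and not without replicate 1 or replicate 2, where the means were -0.37 and -0.35. At 12 hrs it was at 0.34 and 0.22 with PTZ in Cy5 and at -0.22 and -0.29 with PTZ in Cy3. Its 2nd day values of 0.20, 0.28, -0.12 and -0.15 had the same split by dye, so that the means of 0.01 and 0.05 stood for values on both sides of 0. On the 14th day it was at -0.17, 0.33, 0.19 and -0.02.

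A further pair of core subunits lay below 0 on every array of the 7th day. The alpha ring subunit Prosalpha2 was at -0.61, -0.15, -0.05 and -0.26 (mean -0.27, SD 0.24, limma adjusted p = 0.589), and the beta ring subunit Prosbeta3 at -0.13, -0.31, -0.14 and -0.11 (mean -0.17, SD 0.09, limma adjusted p = 0.661). With Rpn11 and Hsp60C they made 6 of 28 members below 0 on every array measured, against 10.7% of all features, while 0 of 28 were above 0 on every array, against 10.5%. Such members were fewer at the other time points. At 12 hrs Hsc70-1 was below 0 on every array (1 of 23 members, against 6.46% of all features), and Prosalpha5 and CCT4 were above (2 of 23, against 6.6%). For the 2nd day Prosbeta5R1 and Hsp68 were below (2 of 22, against 7.37%) and 0 above (against 6.46%), and for the 14th day Prosalpha4 was below (1 of 22, against 7.33%) and Rpt2 and Hsp26 above (2 of 22, against 5.49%).

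Other core genes went the other way on that day. The extra copy Prosbeta2R1 had the highest mean of the class at 0.32, from 0.78 and 0.39 with PTZ in Cy5 and from -0.20 on 1 dye swap. Prosalpha4 was at 0.41, 0.52 and -0.14 (mean 0.26) and Prosbeta7 at 0.36, 0.47 and -0.27 (mean 0.18). All 3 had values on 3 arrays only, high with PTZ in Cy5 and low on the single dye swap, so the dyes were not balanced in their means. Prosalpha3 and Prosalpha7, alpha ring subunits, had means of -0.14 and -0.12 with arrays on both sides of 0.

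**Figure D2:**
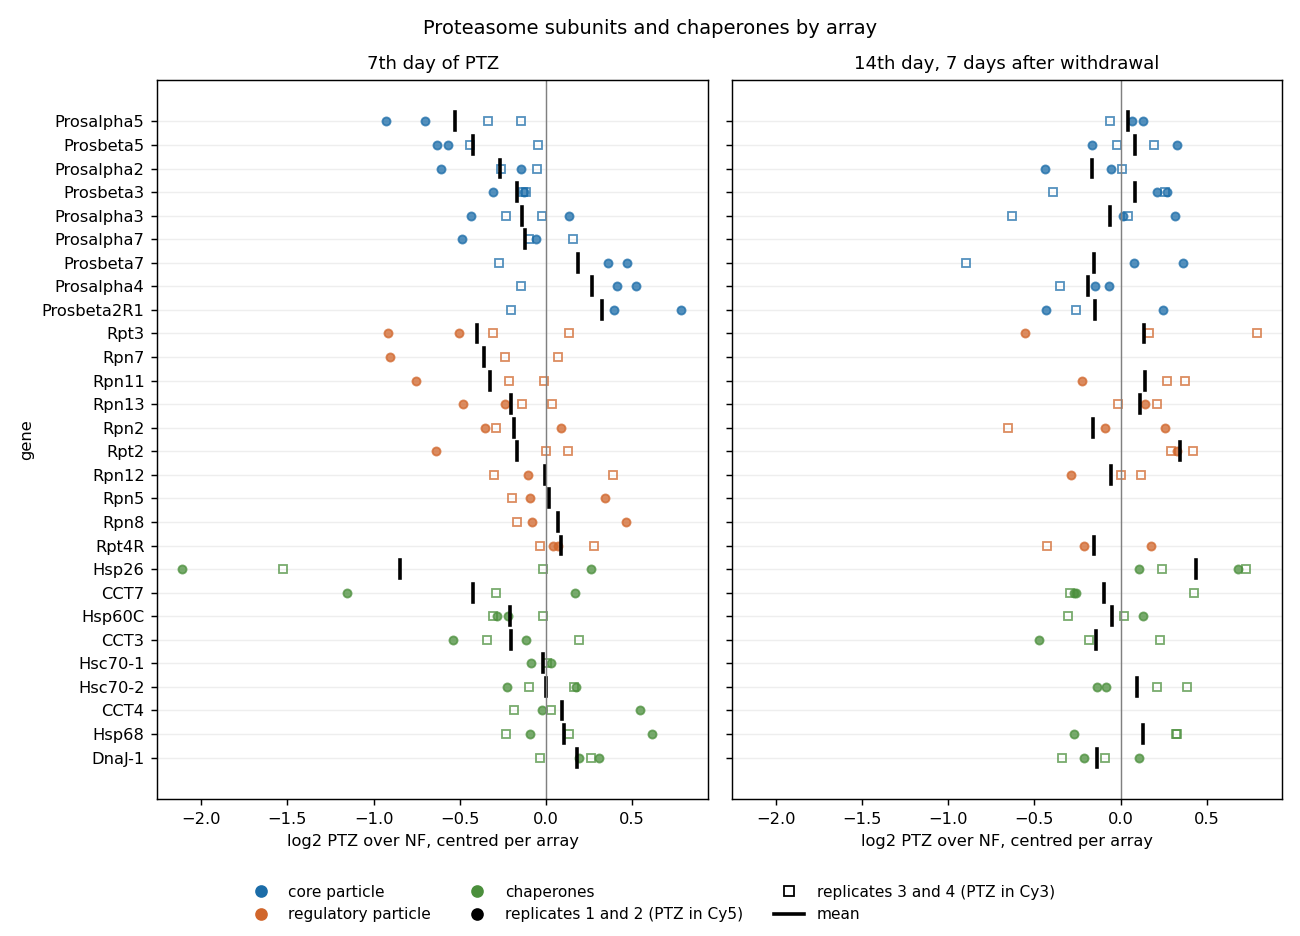
Log2 PTZ over NF (x axis) on each array for the 28 genes measured on the 7th day (rows, by class and then by 7th day mean), with the 7th day of PTZ on the left and the 14th day on the right. Points are single arrays, filled circles with PTZ in Cy5 and open squares with PTZ in Cy3, and black bars are means; 22 of the genes were also measured on the 14th day, where the core subunits Prosalpha5 and Prosbeta5 stand at 0.04 and 0.08.

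At the other time points the core particle held a narrow range of means. At 12 hrs they ran from -0.04 for Prosalpha3 to 0.09 for Prosbeta3. The lowest of the 2nd day was Prosbeta5R1, an extra copy of a beta ring gene, at -0.24, -0.48, -0.06 and -0.06 (mean -0.21, SD 0.20, limma adjusted p = 1), below 0 on every array. The highest was Prosalpha3 at 0.09. On the 14th day means ran from -0.19 for Prosalpha4 to 0.09 for Prosbeta3, and Prosbeta3 was at 0.21, 0.27 and 0.26 on replicates 1 to 3 and at -0.39 on replicate 4. With this array the order of the class on that day rested on values that disagreed in sign.

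In the regulatory particle the lowest gene of the 7th day was Rpt3, an ATPase of the base. It was at -0.92 and -0.51 with PTZ in Cy5 and at -0.31 and 0.14 with PTZ in Cy3 (mean -0.40, SD 0.44, n = 4, limma adjusted p = 0.589). The arrays lay on both sides of 0. Rpn7, a lid subunit, was at -0.90, 0.07 and -0.24 on replicates 1, 3 and 4 (mean -0.36, SD 0.50, limma adjusted p = 0.629). Rpn11, the lid subunit that cuts ubiquitin from substrates, was at -0.75, -0.21 and -0.01 on the same arrays (mean -0.33, SD 0.38, limma adjusted p = 0.627). For these 3 genes replicate 1 was the lowest array, and for Rpn7 and Rpn11 replicate 2 gave no value.

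With a term for the dye in the fit, limma gave 5 members of 28 an unadjusted p under 0.05 and below 0 on the 7th day, against 5.32% of all features, and 0 above 0, against 5.72%. In order of p they were Prosalpha5, Prosbeta5, Rpn7, Rpt3 and Rpn11, all of them proteasome subunits, with an adjusted p = 0.368 for Prosalpha5 and an adjusted p = 0.413 for Rpn11. At an adjusted p under 0.19 this fit also called 0 of the 28, against 0.0274% of all features. The fitted means of Rpn7 and Rpn11 were then -0.49 and -0.43. For both genes the Cy5 side of this fit was replicate 1 alone, at -0.90 and -0.75. That array therefore counted more than in the plain mean of 3 arrays. All 5 of these members, with Prosalpha2 and Hsp26, are also on the study's own gene list. That list was drawn from these arrays and is no independent evidence of their direction.

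The rest of the regulatory particle stood closer to 0 on the 7th day. The ubiquitin receptor Rpn13 had a mean of -0.21, the scaffold subunit Rpn2 -0.19 and the ATPase Rpt2 -0.17, and Rpt2 was at -0.64 on replicate 1 and at 0.00 and 0.13 on replicates 3 and 4. The lid subunits Rpn12, Rpn5 and Rpn8 had means from -0.01 to 0.07, and the extra copy Rpt4R was the highest at 0.09. At 12 hrs the class ran from -0.13 for Rpn3 to 0.08 for Rpn11, both lid subunits. Its 2nd day range was the narrowest of all classes, from -0.08 for Rpn2 to 0.04 for Rpt3.

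After withdrawal, Rpt2 had the highest 14th day mean of the proteasome, at 0.33, 0.29 and 0.42 on the 3 arrays that measured it (mean 0.35, SD 0.07, 1.27-fold higher, limma adjusted p = 1). The arrays were close to each other and all above 0. Rpn2 was the lowest of the class at -0.16, from 0.26, -0.09 and -0.65, and Rpt3 was at -0.56, 0.79 and 0.17 (mean 0.14). With an SD of 0.68, Rpt3 had no settled side of 0 on that day.

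Among the chaperones, Hsp26 had the lowest value on a single array of all members. On the 7th day this small heat shock protein was at -2.11 and -1.53 on replicates 1 and 3 and at 0.26 and -0.02 on replicates 2 and 4. The arrays thus split into pairs, 1 array of each dye orientation in each, and the mean of -0.85 (SD 1.15, 1.80-fold lower, limma adjusted p = 0.589) described neither. The duplicate spots were at -2.12 and -2.10 on replicate 1, at -1.34 and -1.71 on replicate 3, at -0.27 and 0.80 on replicate 2 and at 0.01 and -0.04 on replicate 4. Without replicate 1 the mean was -0.43 and without replicate 3 it was -0.62, and in both cases the unadjusted p from limma was no longer under 0.05. Without replicate 2 it was -1.22, and without replicate 4, the array with the conflicting label, it was -1.12.

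Hsp26 on the 14th day was at 0.68, 0.11, 0.73 and 0.24, above 0 on every array (mean 0.44, SD 0.31, n = 4, 1.36-fold higher, limma adjusted p = 1). Its mean was 0.36 without replicate 1 and 0.34 without replicate 3, where the unadjusted p from limma was no longer under 0.05. On the 2nd day it was at -0.22, 0.13 and -0.06 (mean -0.05), and at 12 hrs only 2 arrays measured it, at 0.34 and -0.46. Hsp26 was the only member with an unadjusted p under 0.05 from limma at 2 time points.

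**Figure D3:**
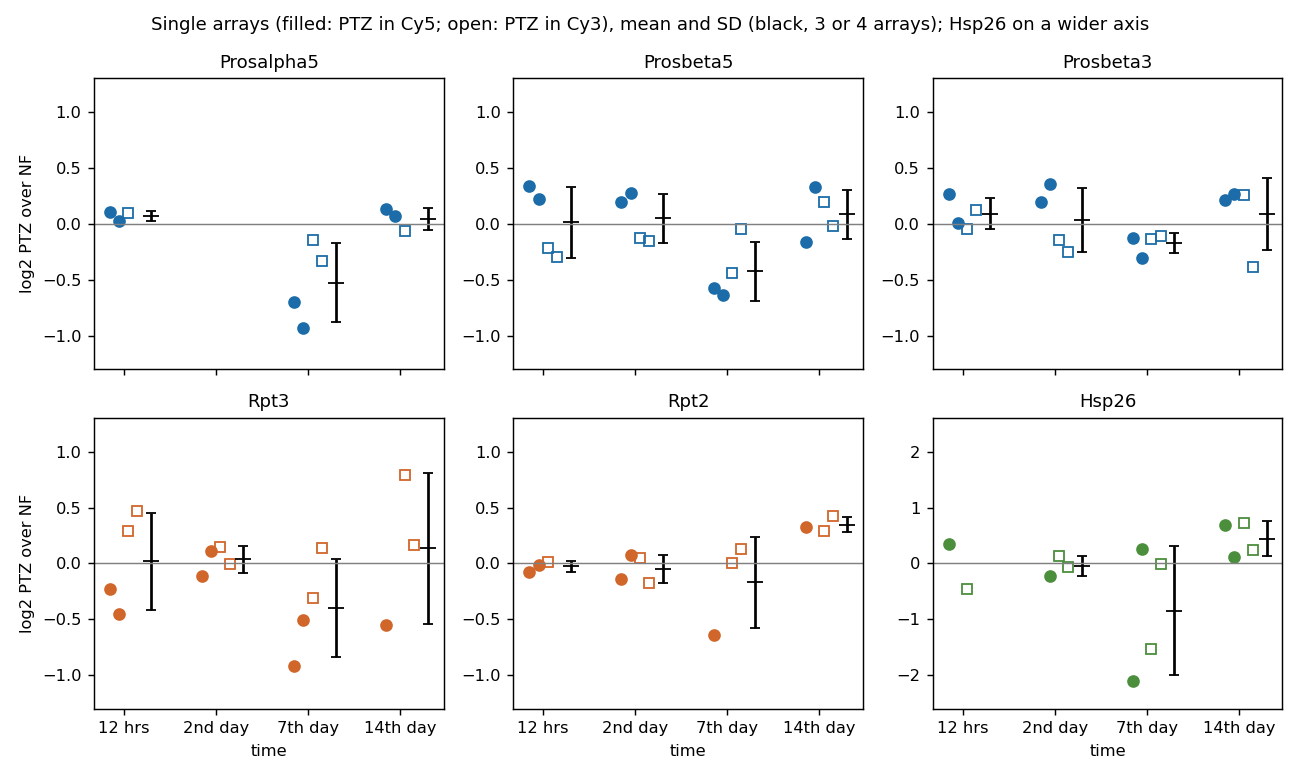
Log2 PTZ over NF (y axis) of 6 genes at each time point (x axis), with single arrays as filled circles (PTZ in Cy5) or open squares (PTZ in Cy3) and the mean with its SD in black where 3 or 4 arrays gave a value. Prosalpha5, Prosbeta5 and Prosbeta3 lie below 0 on every array of the 7th day, Rpt3 and Rpt2 do not, and Hsp26, on a wider axis, runs from -2.11 to 0.26 on that day.

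The heat-inducible Hsp70 protein Hsp68 did not share the Hsp26 values. It had means of 0.03, -0.17, 0.11 and 0.13 over the 4 time points, and on the 7th day it was at -0.09, 0.62, -0.23 and 0.13. Its lowest mean was that of the 2nd day, from -0.13, -0.32 and -0.07, the lowest of the chaperones on that day (SD 0.13, limma adjusted p = 1). Hsc70-1, an Hsp70 family member, had the lowest mean of the chaperones at 12 hrs, at -0.04, -0.13 and -0.36 (mean -0.18, SD 0.16, limma adjusted p = 1), and a mean of -0.02 on the 7th day. Hsc70-2 had means of 0.00 on the 7th day and 0.09 on the 14th, and Hsc70-5, the mitochondrial Hsp70, had -0.01 at 12 hrs and -0.10 on the 2nd day.

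CCT subunits were measured in small numbers, 3 of 7 at 12 hrs, 2 on the 2nd day, 3 on the 7th day and 2 on the 14th day. CCT4 had the highest mean of the chaperones at 12 hrs, at 0.44, 0.26 and 0.08 (mean 0.26, SD 0.18, limma adjusted p = 1), and stood at 0.09 on the 7th day. CCT7 was at -1.15, 0.17 and -0.29 on the 7th day (mean -0.42, SD 0.67, limma adjusted p = 0.631), with the low value on replicate 1, and CCT3 was at -0.54, -0.12, -0.34 and 0.19 (mean -0.20). CCT7 on the 14th day was at -0.26, -0.27 and -0.29 on replicates 1 to 3 and at 0.43 on replicate 4, and CCT3 had the lowest mean of the class at -0.14. The subunits therefore had no common side of 0.

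The mitochondrial-type chaperonin gene Hsp60C had the highest mean of any member on the 2nd day, and it rested on 1 array. The values were 1.75, 0.20 and -0.53 (mean 0.47, SD 1.17, limma adjusted p = 1). Hsp60C on the 7th day was at -0.22, -0.29, -0.02 and -0.31 (mean -0.21, SD 0.13, limma adjusted p = 0.629), close together and below 0 on every array.

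DnaJ-1, a J-domain partner of Hsp70, was printed at 16 spots, and its spots did not give 1 value. Averaged, its means were 0.09 at 12 hrs, 0.08 on the 2nd day, 0.18 on the 7th day, the highest of the chaperones, and -0.13 on the 14th day. At 12 hrs, 1 pair of neighbouring spots was at 0.84 and 0.89 with PTZ in Cy5 and at -0.69 and -0.87 with PTZ in Cy3, while another pair was at -0.62 and -0.19 with PTZ in Cy5 and at 0.11 and 0.45 with PTZ in Cy3. These pairs went opposite ways with the dye, and each had a mean near 0 (0.04 and -0.06). DnaJ-H had means of -0.17 at 12 hrs and 0.05 on the 2nd day, and DnaJ-60 gave 5 values in all, from 0.10 to 0.43 on 5 arrays of 3 time points and above 0 on each.

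Between time points no member passed the test of the difference either. With limma at an adjusted p under 0.19, 0 of 13 members differed between the 2nd day and 12 hrs, against 0.0225% of all features. Of 16 members 0 differed between the 7th and the 2nd day, against 0.0238%, and 0 of 16 between the 7th day and 12 hrs, against 0.135%. Of 22 members 0 differed between the 14th and the 7th day, against 0%.

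The 7th day stood below 12 hrs for 12 of 16 members, and all 5 core subunits measured at both were lower, with a median difference of -0.26. All features had a median difference of -0.05, and 58.3% of them were lower. The difference of Prosalpha5 was -0.60 (SE 0.21, limma adjusted p = 0.754). Its arrays of the 7th day and of 12 hrs did not overlap, and neither did those of Prosbeta3, with a difference of -0.26 (SE 0.14, limma adjusted p = 0.761), so 2 of 16 members were lower without overlap, against 4.17% of all features. In the fit without a dye term, Prosalpha5 was also the only one of the 16 with an unadjusted p under 0.05 from limma and lower, against 3.23% of all features, and 0 were higher, against 2.91%. With a dye term Rpn11, Prosbeta5 and Rpt3 were also lower at such a p (limma adjusted p from 0.326 to 0.415). The share of all features was not counted for that fit. The regulatory particle was lower for 5 of 6 genes (median -0.19), and Rpt3 had a difference of -0.42 (SE 0.27, limma adjusted p = 0.8). Chaperones were lower for 2 of 5 genes, with a median of 0.07.

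Against the 2nd day, which shares its 7th day arrays with the comparison above, 12 of 16 members were lower on the 7th day, and 58% of all features. Of 6 core genes 5 were lower, and Prosbeta5 had a difference of -0.47 (SE 0.17, limma adjusted p = 0.735). Prosbeta5 was the only one of the 16 with an unadjusted p under 0.05 from limma and lower, against 3.38% of all features, and 0 were higher, against 2.91%. Rpt3 had a difference of -0.43 (SE 0.21, limma adjusted p = 0.735). With a dye term in the fit Rpt3 was also lower at an unadjusted p under 0.05 (limma adjusted p = 0.363). No share of all features was counted for that fit. Between the 2nd day and 12 hrs the members' differences ran from -0.21 to 0.22, with 7 of 13 lower (48.9% of all features) and 0 at an unadjusted p under 0.05 by limma, against 1.37% of all features lower and 0.946% higher.

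After withdrawal, 16 of 22 members stood higher than on the 7th day, where 50.1% of all features were lower and the median difference of all features was 0.00. Core subunits were higher for 5 of 8 genes (median 0.09), regulatory subunits for 5 of 7 (median 0.32) and chaperones for 6 of 7 (median 0.09). These differences used the same 7th day arrays as those above. Unadjusted p under 0.05 from limma were found for 3 members, all higher, against 3.13% of all features, and 0 were lower, against 4.52%. Hsp26 was higher by 1.29 (SE 0.47), Prosalpha5 by 0.57 (SE 0.23) and Prosbeta5 by 0.51 (SE 0.19), each with a limma adjusted p = 0.648. With a dye term in the fit Rpt2 was also higher at such an unadjusted p (limma adjusted p = 0.488). No share of all features was counted for that fit. Rpt2 had no value on replicate 2 of either day, so its Cy5 side was replicate 1 alone. For Prosalpha5 and for Rpt2, higher by 0.52 (SE 0.25, limma adjusted p = 0.657), the arrays of the 14th day all lay above those of the 7th, 2 of 22 members against 2.84% of all features.

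Over the 8 members measured at all 4 time points, 5 had their lowest mean on the 7th day, namely Prosalpha3, Prosbeta3, Prosbeta5, Rpt2 and Rpt3. Of all features measured so, 41.3% were lowest on that day. Rpn12 and DnaJ-1 were lowest on the 14th day and Hsp68 on the 2nd day. All 3 core subunits of these 8 were lowest on the 7th day, as were 2 of 3 regulatory subunits and 0 of 2 chaperones.

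The dye orientation moved with many of these values, as the plot of both orientations shows. At 12 hrs 18 of 23 members had means of opposite sign in the Cy5 and the Cy3 orientation of PTZ, among them all 9 regulatory subunits, against 70.5% of all features. For the 2nd day it was 16 of 22, against 63.3%, and for the 14th day 14 of 22, against 56.6%. The 7th day had 12 of 28, against 47.5%. On that day 14 of 28 members were below 0 in both orientations, against 26.8% of all features, and 2 were above 0 in both, against 25.7%. Prosalpha5 had means of -0.81 with PTZ in Cy5 and of -0.24 in the dye swaps of that day, and Prosbeta5 had -0.60 and -0.25. The part of the dye in single values was not tested beyond the fit with a dye term.

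**Figure D4:**
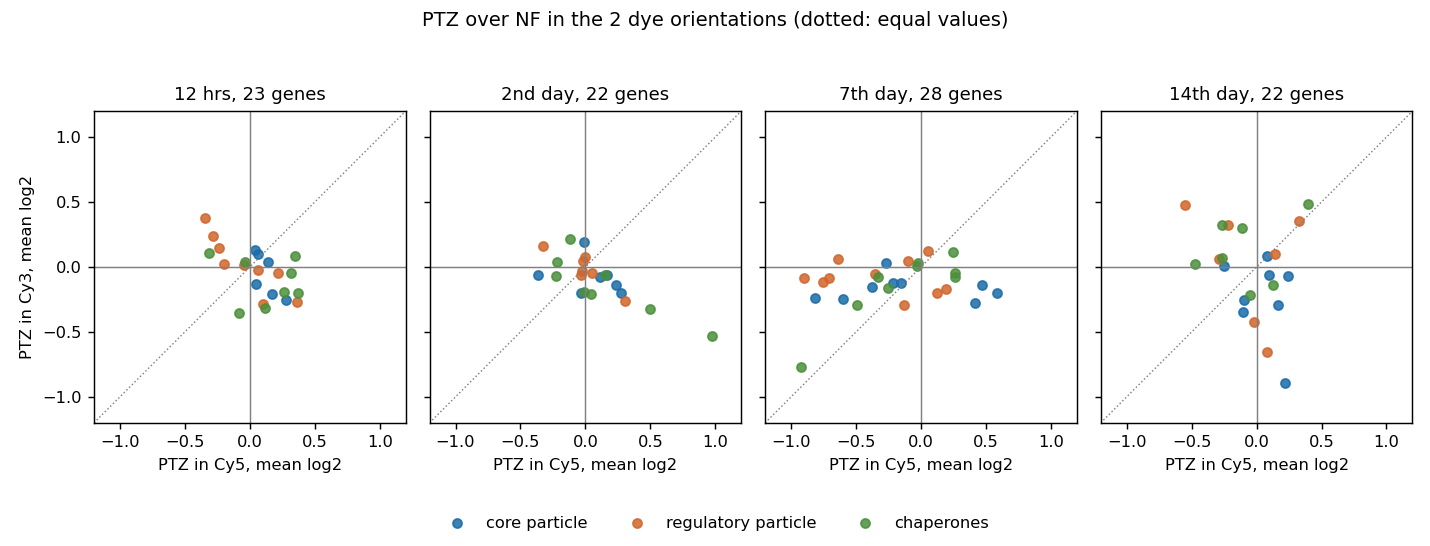
Mean log2 PTZ over NF of each measured gene on the arrays with PTZ in Cy5 (x axis) against the arrays with PTZ in Cy3 (y axis), 1 panel for each time point, coloured by class, with a dotted line of equal values. At 12 hrs and on the 2nd day most genes lie in the panels' opposite-sign corners (18 of 23 and 16 of 22), and on the 7th day 14 of 28 lie below 0 in both orientations.

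Genes that work with the proteasome and with chaperones were looked at in the same way. Of 34 genes of ubiquitin supply, conjugation and proteasome assembly or regulation, 19 are among the named rows and 13 to 15 were measured at a time point. By the 7th day 11 of 14 were below 0, against 49.3% of all features, with a median of -0.17 that stood beside 0.00 for all features. The proteasome subunits of both particles together also had a median of -0.17 on that day. Genes of the list were mostly below 0 at the other time points too. At 12 hrs it was 9 of 13 (49.4% of all features, median -0.06) and on the 2nd day 9 of 14 (48.1%, median -0.01). For the 14th day it was 10 of 15 (51.7%, median -0.04). Of the 14 genes measured on the 7th day 1 was lower at an unadjusted p under 0.05 from limma, against 3.31% of all features. That gene was the polyubiquitin gene Ubi-p5E, at -0.58, -0.35, -0.16 and -0.69 (mean -0.44, SD 0.23, limma adjusted p = 0.589). At 12 hrs the polyubiquitin gene Ubi-p63E was at -0.47, -0.18, -0.02 and -0.53 (mean -0.30, SD 0.24, limma adjusted p = 1), also with an unadjusted p under 0.05. Both lay below 0 on every array of these time points.

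Of 37 genes of co-chaperones, folding and the stress response, 25 are among the named rows and 16 to 21 were measured. Their medians were -0.02, 0.02, -0.09 and 0.12 over the 4 time points. HIP, a co-chaperone of Hsp70, was at -1.17, -0.81, -0.27 and -0.05 on the 7th day (mean -0.57, SD 0.51, limma adjusted p = 0.589), below 0 on every array and lower with PTZ in Cy5. Pfdn6, a subunit of the prefoldin complex that hands actin and tubulin to CCT, was at -0.77, -0.23 and -0.28 at 12 hrs (mean -0.43, SD 0.30, limma adjusted p = 1), and like HIP it had an unadjusted p under 0.05. No gene of either list passed an adjusted p under 0.19.

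Markers of the cell types of the head were measured unevenly. Of 15 fat body markers 13 are among the named rows, and 5 to 9 were measured at a time point. All 5 of the 7th day had means below 0, from -0.58 to -0.08 (median -0.23), against 49.3% of all features. Their median was -0.60, -0.46, -0.18 and 0.04 on replicates 1 to 4, so that replicate 1 was the lowest array for this list as for the proteasome. At 12 hrs 5 of 6 were below 0 (49.4% of all features, median -0.23) and on the 2nd day 6 of 9 (48.1%, median -0.07). For the 14th day it was 3 of 6 (51.7%, median 0.13). On the 2nd day fit, a gene of the fat body of the female head, and AkhR, the receptor of adipokinetic hormone, passed with limma at means of -1.25 (adjusted p = 0.0347) and -0.54 (adjusted p = 0.145), on a day when 0 of 22 members passed. The lipoprotein gene apolpp had means of -0.50 at 12 hrs and -0.73 on the 2nd day, the lipase gene bmm had 0.60 on the 2nd day, and the yolk protein gene Yp3 and fit had 0.44 and 0.41 on the 14th day, each with an unadjusted p under 0.05 from limma. In other lists such a p was found for the photoreceptor arrestin Arr1 and the muscle actin Act88F on the 7th day (means -0.41 and -0.39) and for alrm, a gene of astrocyte-like glia, on the 2nd day (-0.37). Of 16 photoreceptor markers 7 or 8 were measured at each time point, with medians from 0.01 to 0.11, and only 2 of 12 neuronal markers are among the named rows, with medians from -0.25 to 0.18. Medians ran from -0.22 to -0.02 for glia (3 or 4 of 7 markers), from 0.08 to 0.18 for muscle (3 of 8) and from -0.14 to -0.00013 for germline and ovary (2 to 5 of 10). For haemocytes 1 of 4 markers was measured, at -0.0018 on the 7th day and -0.34 on the 14th. The part of cell composition in the proteasome and chaperone values was not tested.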

How the data were processed

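RNA of fly heads was compared on 16 2-colour arrays, 4 at each of 4 time points. The authors deposited 1 table of log2 ratios of red over green, scanned and ratio-normalized by them with weak, saturated and uneven spots removed. The sources used here do not say how those values were centred. A ceiling value in 53 cells was treated as missing. The median of each array was subtracted, and the dye swap arrays were multiplied by -1. Rows were named through the platform annotation (1 gene in 15116 rows, several in 102, none in 12430), with symbols updated through the RefSeq Release 6 gene table, used for names only, which lacks the gene of 222 rows. Spots of a gene were averaged per array, and neighbouring unnamed spots as a pair. Matches to the symbol rule with another product, such as Prosap, were set aside.

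Genes on at least 3 of 4 arrays were tested against 0 in each time point, and between time points over 8 arrays, with R 4.3.3 and limma 3.58.1 (lmFit, eBayes, Benjamini-Hochberg over all features). The adjusted p threshold of 0.19 is the highest FDR of the study. That FDR came from SAM with permutations on spots the authors filtered, so it is not the same measure as the adjusted p of limma. By it the study listed genes as lower on the 7th day, where limma here called 0 of 7289 features. The functions were tested on simulated data. Named with values are members with an unadjusted p under 0.05, the lowest and highest mean of each class, members on the study's gene list, members on 1 side of 0 on all their arrays, and, of the other 2 pathway lists and 7 marker lists, genes with that p; other members were named after their values were seen. Members and lists were chosen with earlier results of these data known. Alternatives covered centring, scale, a dye term, the collapse of spots, all 4 arrays, ceiling values, a shared fit, the threshold, the members counted, the replicate block and each replicate left out. The number of arrays limits the precision of every mean. Replicates are separate pools per the labels. The p-values of a fit without a dye term measure the spread between those pools together with the spread between the dye orientations.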

Additional observations from a re-analysis of the deposited data

Results flagged for a closer look

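In the core particle, 1 array of Prosbeta3 stood far from the other 3 on the 7th day (replicate 2 at -0.31, the others from -0.14 to -0.11) and 1 on the 14th day (replicate 4 at -0.39, the others from 0.21 to 0.27). Replicate 4 of the 14th day also stood apart for CCT7, at 0.43 beside values from -0.29 to -0.26. Of 64 groups of 4 arrays looked at, 3 had such an array, and chance gives about 1 in 20 groups, or 3.2. Prosalpha5 was above 0 on all 3 arrays of 12 hrs and below 0 on all 4 of the 7th day, a difference of -0.60 on the log2 scale (limma adjusted p = 0.754), which did not pass the correction.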

How the results depend on the processing

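The count of members called stayed at 0 at every time point and in every difference under all alternatives run, each replicate left out in turn included (lowest 0, highest 0). Left out in turn, replicates moved the core particle median between -0.034 and 0.076 at 12 hrs, and at the later time points in order between -0.030 and 0.057, -0.19 and -0.041, and -0.20 and -0.016. The regulatory particle median moved from -0.069 to -0.025, -0.017 to -0.0015, -0.24 to -0.093 and 0.026 to 0.11, and that of the chaperones from -0.040 to 0.15, -0.056 to 0.0025, -0.064 to -0.017 and -0.087 to 0.031. As deposited, without centring, the core particle median of the 14th day was 0.66, where all features stood at 0.25. Uncentred values carry the array medians, which before turning were 1.57, 0.93, -0.01 and 1.52 on replicates 1 to 4 of that day. A gene without a value on replicate 4 lacks the offset of that array, so 0.66 is not read as a shift of the core particle. The cause was not tested. Single spot pairs of DnaJ-1, an alternative chosen after seeing the data, turned its mean to -0.014 and -0.062 at 12 hrs, -0.13 on the 7th day and 0.19 on the 14th day; the cause was not tested.

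Same-numbered replicates did not deviate together in every pair: over the 4 comparisons their correlations ran from -0.11 to 0.35, and at most 3 arrays correlated best with their own number. With the replicate number as a block, 0 members were called in each comparison, and the differences between the 7th and the 2nd day for Prosbeta5 and between the 7th day and 12 hrs for Prosalpha5 were -0.47 (limma adjusted p = 0.735) and -0.67 (limma adjusted p = 0.627). Missing spots left 10 of 47 members short of 3 arrays at every time point, and 3 arrays do not balance the dyes.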
